A study of Mus musculus with 23 samples.

Results

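A named set of 10 protein-coding genes near Nr2f6 on mouse chromosome 8 was followed in B16F10 melanoma after Cas9 cutting of Nr2f6. They were chosen by name for their position near the cut gene, with earlier results of these data known, and are 10 of the 47643 genes of the expression table. They are a selection: another 14 genes of the table have bodies within 250 kb of Nr2f6, several of them nearer to it than Pgls, and those are described after the 10. On GRCm38 (mm10) with GENCODE M21 positions, they run in the order Use1, Ocel1, Ushbp1, Babam1, Abhd8, Mrpl34, Dda1, Ano8, Gtpbp3 and Pgls from lower to higher coordinates. Nr2f6 itself spans chr8:71374123-71381960 on the minus strand. Use1 (chr8:71366848-71369732, plus strand) and Ocel1 (chr8:71371298-71379361, plus strand) start on its lower side. The other 8 genes start on its upper side, between Ushbp1 at 13.8 kb and Pgls at 210 kb from the start of Nr2f6.

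RNA-seq was available from 18 libraries of B16F10, a mouse melanoma cell line, in 3 sample types: bulk tumors grown in mice, tumor cells sorted out of such tumors (sorted cells below), and cells kept in culture (cultures below). For each type there were 2 libraries of control cells, labeled wild type, and 2 each of cells labeled NR2F6 KO and made with the guide RNA sg492 or sg495. For the edited groups, cells had received Cy3-labeled guide RNA with Cas9 protein and had been sorted for Cy3; whether clones were then derived is not given in the sources used here. Sorted cells had been obtained by collagenase digestion and magnetic removal of stromal cells. The labels used here give neither strain nor age of the mice, nor whether libraries with the same number came from the same animal or culture, so p-values measure the spread between these libraries.

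A guide RNA directs Cas9 to cut both DNA strands at 1 site, and repair of the cut usually leaves a small insertion or deletion. Such an edit reaches the mRNA of the cut gene through its reading frame and its decay, whereas genes nearby are not targets of the guide. NR2F6 is an orphan nuclear receptor of the COUP-TF family that binds DNA repeats of the AGGTCA half-site and mostly represses transcription. The 10 neighbors have varied roles, which range from mitochondrial translation to ubiquitin signaling.

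Expression was given as TPM, which scales transcripts for their length and for the total of the library. It added up to between 999999 and 1000001 per library. TPM do not carry the depth of a library, and no depth per library was used here. Between 11925 and 13899 genes per library reached 1 TPM. Melanocyte genes summed to between 14840 and 17844 TPM in all 18 libraries, and Ptprc, which marks leukocytes, was listed at 0 in the 6 cultured libraries. Nr2f6 was lower than both controls in both sg495 libraries of each sample type, whereas the sorted libraries labeled sg492 had 19.84 and 25.7 TPM against 20.32 and 17.73 TPM in control and are named by their label below. Each comparison was fitted with limma on log2(TPM + 1) for genes that averaged 1 TPM or more, and p-values were adjusted by Benjamini-Hochberg over all genes. Calls required a fold change of 1.5 or more (0.585 on the log2 scale) with an adjusted p under 0.05. The smallest p of a 2-sided exact permutation test on 2 libraries against 2 is 0.333, so none was run. The sg492 and sg495 comparisons share their control libraries.

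The promoters of the neighbors were read for 2 sets of letters, as a description of the sequences. Whether either set bears on the values with sg495 was not tested. RefSeq (GRCm38.p6) gave 10 windows, from 250 bases before to 50 bases after a start, for 9 of the 10 genes, Use1 with 2 starts and Ano8 with none. The nuclear receptor half-site AGGTCA was found, on either strand, in the windows of Use1 and Ocel1, and in 16.3% of all 32851 promoter windows. A direct repeat of that half-site with any 1 base between was in none of the 10 windows and in 0.0396% of all windows. The element ACTACA, any 2 bases, TCCCAG, which is of the type that the zinc finger protein ZNF143 binds, was in the windows of Babam1, Mrpl34 and Dda1 and in 1.03% of all windows, and Mrpl34 held it 2 times. It was searched after these sequences had been seen, so the 3 of 9 genes are a description. The 5 windows that hold either set are printed 5′ to 3′ on the gene's strand with those letters in capitals, Use1 from chr8:71366598-71366897, Ocel1 from chr8:71371048-71371347, Babam1 from chr8:71396605-71396904, Mrpl34 from chr8:71464676-71464975 and Dda1 from chr8:71468944-71469243, all on the plus strand.
Use1: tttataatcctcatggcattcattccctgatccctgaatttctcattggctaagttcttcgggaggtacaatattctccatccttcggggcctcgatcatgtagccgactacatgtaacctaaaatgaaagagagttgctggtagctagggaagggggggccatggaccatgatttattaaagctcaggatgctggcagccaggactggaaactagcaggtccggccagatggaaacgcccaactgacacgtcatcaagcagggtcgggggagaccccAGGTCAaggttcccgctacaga
Ocel1: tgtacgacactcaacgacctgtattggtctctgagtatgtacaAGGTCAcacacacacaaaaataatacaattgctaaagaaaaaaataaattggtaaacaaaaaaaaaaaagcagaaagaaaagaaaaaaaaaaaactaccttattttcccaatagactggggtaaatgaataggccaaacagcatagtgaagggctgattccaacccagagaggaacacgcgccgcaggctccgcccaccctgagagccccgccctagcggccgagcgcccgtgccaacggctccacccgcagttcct
Babam1: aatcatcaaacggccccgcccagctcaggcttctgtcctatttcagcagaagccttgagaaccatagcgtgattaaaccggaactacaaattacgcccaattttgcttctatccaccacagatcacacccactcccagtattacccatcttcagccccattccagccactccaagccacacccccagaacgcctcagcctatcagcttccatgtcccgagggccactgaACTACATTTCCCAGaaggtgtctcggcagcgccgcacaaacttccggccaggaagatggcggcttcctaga
Mrpl34: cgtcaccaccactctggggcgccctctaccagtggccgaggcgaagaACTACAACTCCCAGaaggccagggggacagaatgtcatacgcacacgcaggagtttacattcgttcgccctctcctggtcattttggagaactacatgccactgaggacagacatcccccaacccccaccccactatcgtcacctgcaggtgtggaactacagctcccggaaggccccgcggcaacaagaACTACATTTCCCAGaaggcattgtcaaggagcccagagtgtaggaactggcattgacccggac
Dda1: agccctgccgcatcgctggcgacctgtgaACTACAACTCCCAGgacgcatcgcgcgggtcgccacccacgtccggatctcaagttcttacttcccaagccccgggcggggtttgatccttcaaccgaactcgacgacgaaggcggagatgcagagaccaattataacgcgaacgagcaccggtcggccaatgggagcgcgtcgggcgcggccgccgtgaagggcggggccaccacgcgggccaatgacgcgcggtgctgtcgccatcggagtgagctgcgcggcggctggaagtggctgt
The half-site begins at base 279 of the Use1 window, after the annotated start at base 251, and at base 44 of the Ocel1 window. The longer element begins at base 230 in Babam1, at bases 48 and 238 in Mrpl34 and at base 30 in Dda1. A match of letters is no measurement of binding.

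Levels of the neighbors in control cells formed 3 tiers. In control cultures, Pgls had 90.0 ± 5.21 TPM (SD, n = 2), Abhd8 89.3 ± 5.19 TPM and Babam1 88.4 ± 2.46 TPM, and these 3 did not differ beyond their spread. Use1 followed with 70.7 ± 1.25 TPM, Dda1 with 64.2 ± 0.141 TPM and Mrpl34 with 60.1 ± 2.72 TPM. Gtpbp3 (17.1 ± 1.49 TPM), Ano8 (9.58 ± 0.552 TPM) and Ocel1 (6.12 ± 0.0354 TPM) formed the lower tier. Ushbp1 was barely detected at 0.07 and 0.06 TPM. The same 6 genes were the upper tier in control bulk tumors, from Abhd8 at 47.7 ± 2.6 TPM to Pgls at 100.7 ± 2.8 TPM, and in control sorted cells, from Abhd8 at 40.3 ± 0.247 TPM to Pgls at 97.9 ± 0.099 TPM. Across all 6 libraries of a sample type, Abhd8 ran from 65.5 to 98.7 TPM in cultures and from 29.9 to 49.6 TPM in both tumor-derived types, so these ranges did not overlap.

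**Figure D1:**
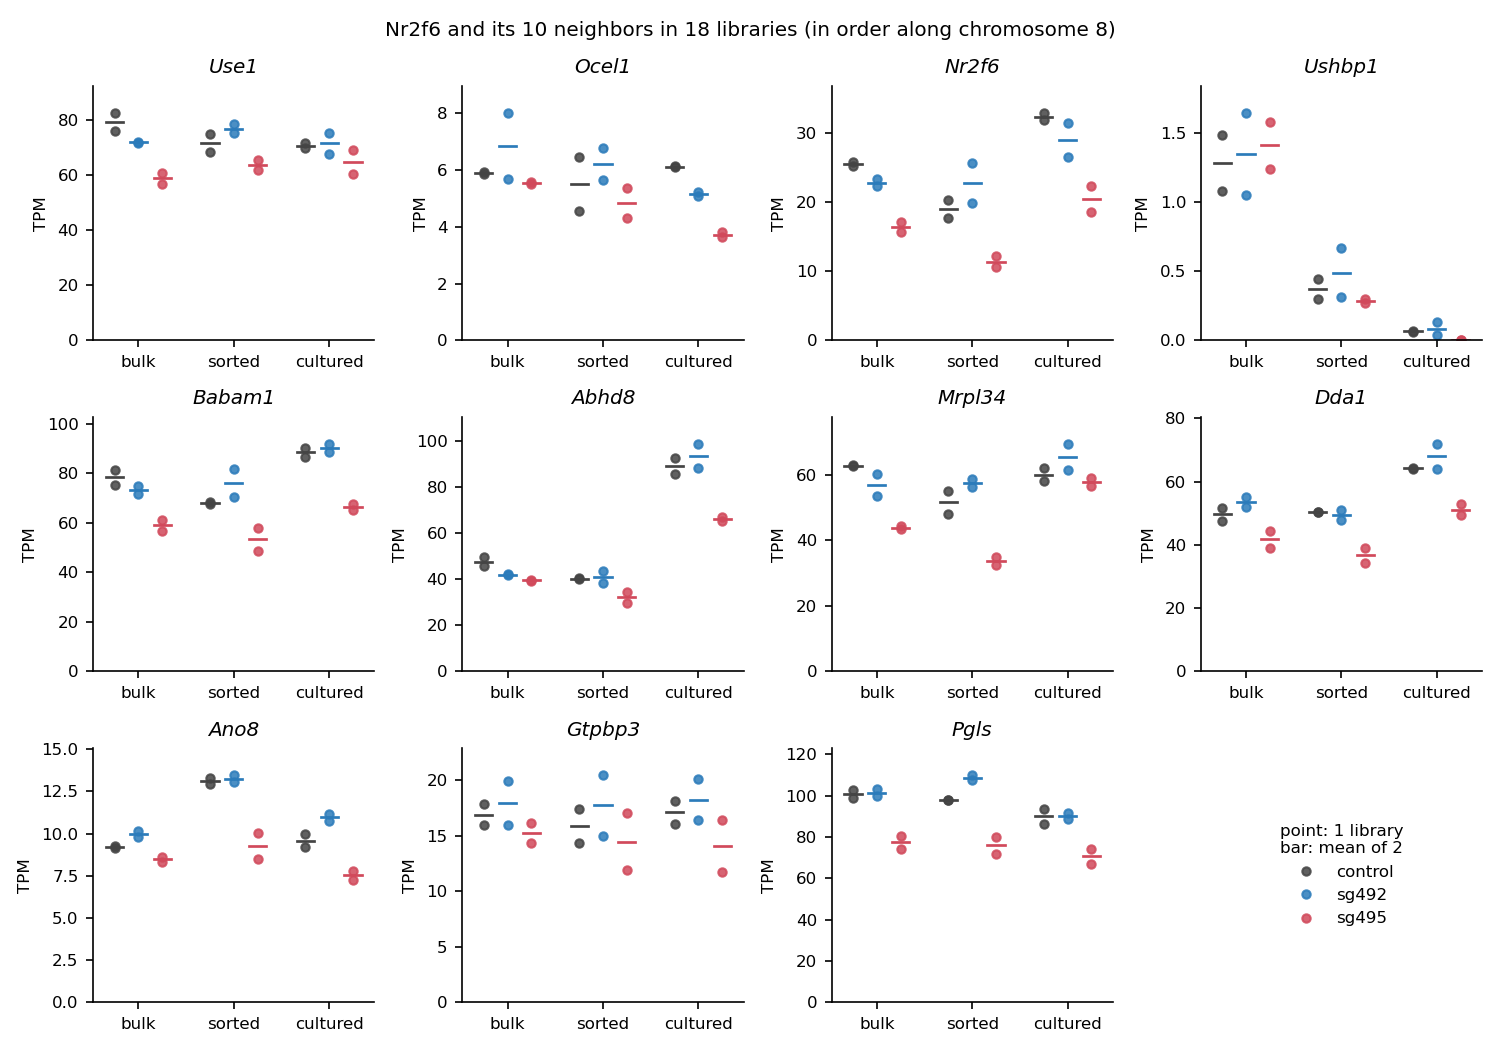
TPM of Nr2f6 and its 10 neighbors, 1 panel per gene, in bulk tumors, sorted cells and cultures (points, single libraries; bars, means of 2 libraries). The red sg495 points of Babam1, Abhd8, Dda1, Ano8, Use1 and Pgls lie below both control points in all 3 sample types, those of Mrpl34 only in bulk and sorted, and those of Gtpbp3 in none.

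With sg495, the neighbors were lower than control in all 3 sample types, by about as much as the rest of chromosome 8. The median log2 fold change of the neighbors tested was −0.26 in bulk tumors (10 genes), −0.35 in sorted cells (9 genes) and −0.32 in cultures (9 genes). The other tested genes of chromosome 8 had medians of −0.25, −0.34 and −0.33 in the same order, and genes of the other chromosomes 0.07, −0.03 and 0.01. Ushbp1 passed the expression filter in bulk tumors alone, so it is the gene left out of the other 2 sample types. Both sg495 libraries were below both controls for 8 of 10 neighbors in bulk tumors, where 14.3% of all tested genes and 65% of the other genes of chromosome 8 did the same. In sorted cells these shares were 7 of 9 neighbors, 31.5% of all genes and 70.9% of the chromosome. In cultures they were 7 of 9 neighbors, 28.9% of all genes and 80% of the chromosome. With sg492, on the same controls, the medians of the neighbors were 0.02, 0.14 and 0.07.

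Calls of single neighbors at a fold change of 1.5 or more numbered 0 in bulk tumors and sorted cells and 1 in cultures. In bulk tumors, 0 of 10 were called by limma for sg495, where 0.0293% of all genes were called in either direction, and 6 of the 10 were lower at an unadjusted p below 0.05, against 4.55% of all genes and 43.8% of the rest of chromosome 8. In sorted cells, 0 of 9 were called (0.899% of all genes), and 6 of 9 were lower at an unadjusted p below 0.05, against 10.5% of all genes and 51% of the rest of the chromosome. In cultures, Ocel1 was called (1 of 9 neighbors, 2.77% of all genes). There 5 of 9 neighbors were lower at an adjusted p below 0.05 at any fold change, against 7.5% of all genes and 50.6% of the rest of chromosome 8. That count dropped to 1 without control replicate 1, control replicate 2 or sg495 replicate 2, to 0 without sg495 replicate 1, and to 4 without either sg492 library. It was also 1 with no filter on low values, 3 with no trend in the variance and 0 after centering on chromosome 8. Averaged over the 3 sample types in a fit of all 18 libraries, 7 of 9 neighbors fell at an adjusted p below 0.05, against 6.69% of all genes and 63.1% of the rest of the chromosome, and 0 of 9 were called (1.85% of all genes). Without the sorted cells, a setting chosen after seeing the data, 6 of 9 fell at an adjusted p below 0.05.

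**Figure D2:**
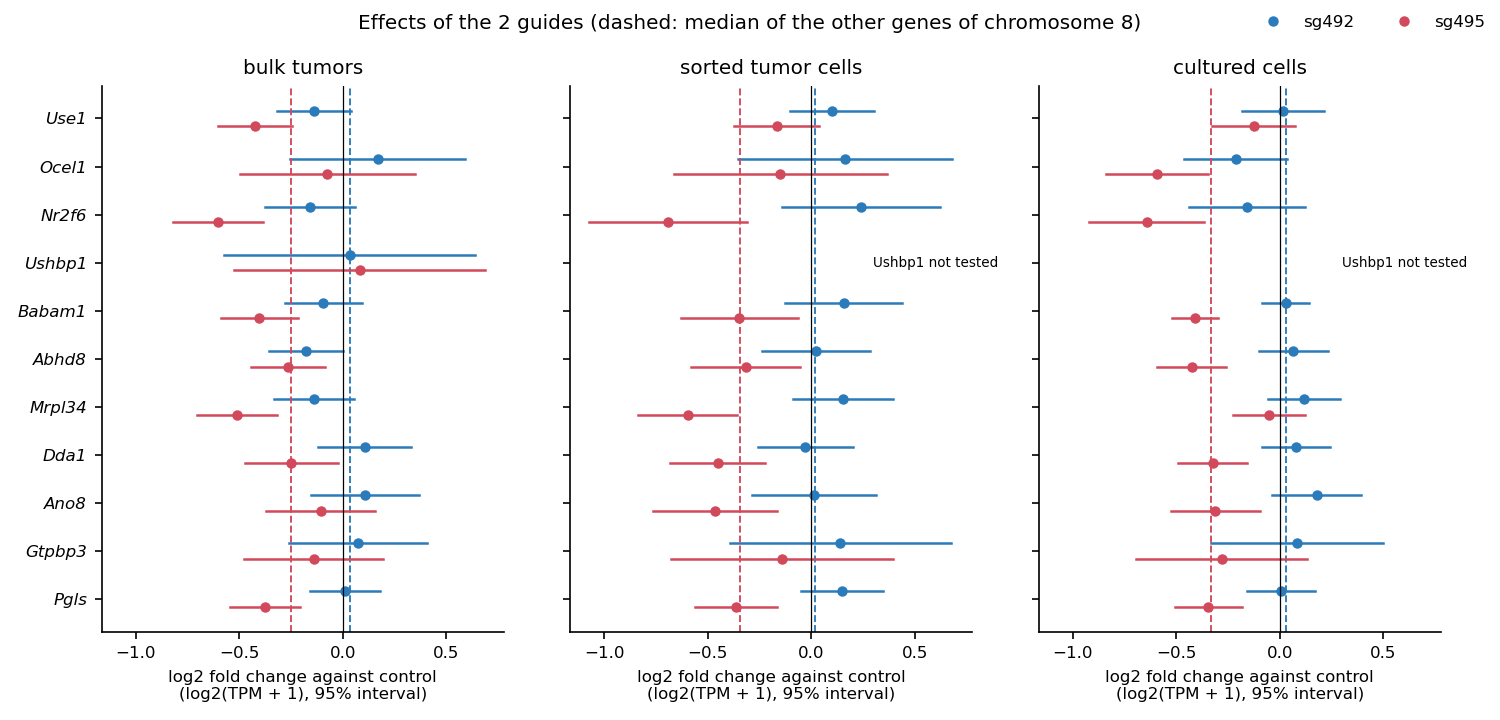
Log2 fold changes of each guide against control on the log2(TPM + 1) scale with 95% limma intervals (points and lines), genes in chromosomal order; dashed lines mark the median of the other genes of chromosome 8 for each guide. Most sg495 points lie nearer to the red dashed line at −0.25, −0.34 and −0.33 than to 0, and the sg495 point of Nr2f6 lies to the left of that line in each panel.

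The 2 neighbors of ubiquitin signaling were lower with sg495 in every sample type, as were most other tested genes of chromosome 8. Babam1 (chr8:71396861-71404619, plus strand) encodes MERIT40, a scaffold subunit that the BRCA1-A complex at DNA breaks and the cytoplasmic deubiquitinase BRISC have in common. It had 81.37 and 75.21 TPM in bulk tumors of control cells, against 61.07 and 56.8 TPM with sg495. Sorted cells had 68.27 and 67.39 TPM in control and 48.62 and 57.92 TPM with sg495, and cultures 90.17 and 86.69 TPM in control and 65.33 and 67.46 TPM with sg495. The groups did not overlap in any sample type. In cultures Babam1 fell by 0.41 on the log2 scale (standard error 0.0461, limma adjusted p = 0.00557), while the values of −0.40 in bulk tumors (adjusted p = 0.105) and −0.35 in sorted cells (adjusted p = 0.242) missed the threshold.

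Dda1 (chr8:71469199-71476098, plus strand) encodes a small subunit of the DET1 and DDB1 assembly of CUL4 ubiquitin ligases. It had 47.67 and 51.66 TPM in bulk tumors of control cells, against 39.02 and 44.42 TPM with sg495. It had 50.3 and 50.45 TPM in control sorted cells and 34.28 and 39.07 TPM with sg495, and in cultures 64.29 and 64.09 TPM against 49.33 and 52.88 TPM. Again no sg495 library reached its controls. The log2 fold change was −0.32 in cultures (standard error 0.0682, limma adjusted p = 0.0340), −0.45 in sorted cells (adjusted p = 0.105) and −0.25 in bulk tumors (adjusted p = 0.271).

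Mrpl34 and Gtpbp3 serve protein synthesis in mitochondria. Mrpl34 (chr8:71464959-71465747, plus strand) encodes a protein of the large subunit of the mitochondrial ribosome. It had 62.57 and 63.04 TPM in bulk tumors of control cells, against 43.33 and 44.3 TPM with sg495, and 48.06 and 55.18 TPM in control sorted cells and 32.5 and 34.99 TPM with sg495. In cultures the controls at 58.13 and 61.97 TPM and the sg495 libraries at 59.17 and 56.72 TPM overlapped. Bulk tumors gave a log2 fold change of −0.51 (standard error 0.0797, limma adjusted p = 0.0865) and sorted cells −0.60 (standard error 0.0986, adjusted p = 0.0594), the lowest value of the neighbors tested in both. In cultures it was −0.05 (standard error 0.0718, adjusted p = 0.699), and 87.2% of the other genes of chromosome 8 were lower than Mrpl34 there. The sg495 effect on Mrpl34 was smaller in cultures than in sorted cells by a test of the difference itself (difference of −0.55, standard error 0.118, adjusted p = 0.0248 in the 18-library fit), and the difference from bulk tumors was −0.46 (adjusted p = 0.0662). The adjusted p of the difference from sorted cells ran from 0.0184 to 0.0989 over 18 alternatives, and was above 0.05 without cultured control replicate 1 (0.0870) or 2 (0.0635), cultured sg495 replicate 1 (0.0989) or 2 (0.0727), sorted control replicate 2 (0.0962) or sorted sg495 replicate 1 (0.0677). Mrpl34 was 1 of 9 neighbors lower in that test of sorted cells against cultures, as were 1.86% of all genes and 1.77% of the rest of the chromosome. Its difference of −0.55 did not reach the fold threshold for a call.

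Gtpbp3 (chr8:71488103-71499583, plus strand) encodes a GTPase that modifies uridine in mitochondrial tRNAs. It had 17.89 and 15.94 TPM in bulk tumors of control cells against 14.36 and 16.14 TPM with sg495, and 17.41 and 14.35 TPM against 11.89 and 17.02 TPM in sorted cells. In cultures it had 18.17 and 16.06 TPM against 11.73 and 16.42 TPM. The sg495 and control libraries overlapped in each sample type, and the log2 fold changes of −0.14, −0.14 and −0.28 had limma adjusted p-values of 0.683, 0.802 and 0.343. Its body overlaps that of Plvap on the opposite strand over 1819 bases, and the strand setting used in counting is not given in the sources used here.

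Pgls encodes 6-phosphogluconolactonase, the second enzyme of the oxidative pentose phosphate pathway. It lies at chr8:71592176-71601092 on the plus strand, the farthest of the 10 genes from Nr2f6, and shares 3445 bases of its body with Fam129c on the same strand. It had 98.7 and 102.66 TPM in bulk tumors of control cells, against 80.57 and 74.38 TPM with sg495. It had 97.78 and 97.92 TPM in control sorted cells and 71.8 and 80.08 TPM with sg495, and 86.33 and 93.7 TPM in control cultures and 67.07 and 74.35 TPM with sg495. The groups were separate throughout. In cultures Pgls fell by 0.34 on the log2 scale (standard error 0.0671, limma adjusted p = 0.0272), with values of −0.37 in bulk tumors (adjusted p = 0.105) and −0.36 in sorted cells (adjusted p = 0.119).

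Of the neighbors with membrane or organelle roles, Abhd8 passed the adjusted p in cultures. Abhd8 (chr8:71456705-71463655, minus strand) encodes a protein with an alpha/beta hydrolase fold. It had 85.6 and 92.94 TPM in control cultures and 65.49 and 66.99 TPM with sg495, a log2 fold change of −0.42 (standard error 0.0686, limma adjusted p = 0.0159). Bulk tumors had 49.57 and 45.89 TPM in control and 39.9 and 39.26 TPM with sg495, and sorted cells 40.1 and 40.45 TPM against 29.9 and 34.53 TPM. No sg495 library reached a control, with log2 fold changes of −0.26 (adjusted p = 0.163) and −0.32 (adjusted p = 0.248).

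Use1 encodes a SNARE protein that serves the fusion of Golgi-derived vesicles with the endoplasmic reticulum. It had 76.14 and 82.57 TPM in bulk tumors of control cells, against 60.95 and 56.87 TPM with sg495, a log2 fold change of −0.42 (standard error 0.0740, limma adjusted p = 0.0994). The controls of sorted cells had 75.2 and 68.44 TPM against 61.98 and 65.7 TPM with sg495, and those of cultures 71.62 and 69.85 TPM against 69.38 and 60.38 TPM. The groups did not overlap, but the log2 fold changes were −0.17 (adjusted p = 0.408) and −0.13 (adjusted p = 0.371).

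Ano8 (chr8:71476019-71485963, minus strand) encodes an anoctamin that tethers the endoplasmic reticulum to the plasma membrane. Its body overlaps that of Dda1 on the opposite strand over 80 bases. It had 13.32 and 12.95 TPM in control sorted cells and 10.02 and 8.51 TPM with sg495, a log2 fold change of −0.47 (standard error 0.123, limma adjusted p = 0.166). In cultures the controls had 9.19 and 9.97 TPM against 7.8 and 7.26 TPM with sg495 (−0.31, adjusted p = 0.0762), and in bulk tumors 9.13 and 9.26 TPM against 8.31 and 8.63 TPM (−0.11, adjusted p = 0.691). All 3 sample types separated without overlap, by the least in bulk tumors.

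Ocel1 and Ushbp1, the neighbors with the lowest levels in control cells, flank Nr2f6 on either side. Ocel1 encodes a protein with the domain that occludin and the ELL elongation factors have in common, and its body overlaps Nr2f6 on the opposite strand over 5239 bases, so reads of the 2 genes could have been mixed if strand was not used in counting. In cultures the controls had 6.14 and 6.09 TPM, with 5.07 and 5.21 TPM for sg492 and 3.63 and 3.81 TPM for sg495. The 3 groups did not overlap, and with sg495 Ocel1 fell by 0.59 on the log2 scale (standard error 0.102, limma adjusted p = 0.0191), the only neighbor called in that comparison. Bulk tumors had 5.91 and 5.86 TPM in control and 5.56 and 5.51 TPM with sg495, and sorted cells 6.45 and 4.55 TPM against 5.35 and 4.3 TPM, which overlapped. The log2 fold changes there were −0.08 (adjusted p = 0.872) and −0.15 (adjusted p = 0.783). The call in cultures lay just past the fold threshold of 0.585. It was lost without control replicate 1 (adjusted p = 0.0801), control replicate 2 (0.0789), sg495 replicate 1 (0.107) or sg495 replicate 2 (0.0846), and the adjusted p ran from 0.0117 to 0.188 over 17 alternatives.

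Ushbp1 (chr8:71384272-71395802, minus strand), named for binding to the Usher syndrome protein harmonin, was low everywhere. It had 1.48 and 1.08 TPM in bulk tumors of control cells, 1.05 and 1.64 TPM for sg492 and 1.24 and 1.58 TPM for sg495. In sorted cells its 6 libraries lay between 0.27 and 0.67 TPM, and in cultures between 0 and 0.13 TPM, both sg495 libraries being listed at 0. The bulk libraries overlapped between groups (log2 fold change with sg495 0.08, limma adjusted p = 0.907). Genes of endothelium, of which 8 were summed, had between 65.7 and 83.2 TPM per library in bulk tumors and at most 1.08 TPM in the other 2 sample types.

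Averaged over the 3 sample types, 6 control and 6 sg495 libraries entered each estimate and were taken as independent. Babam1 (−0.39, limma adjusted p = 0.000257), Mrpl34 (−0.39, adjusted p = 0.000225), Pgls (−0.36, adjusted p = 9.96e-05), Dda1 (−0.34, adjusted p = 0.000617) and Abhd8 (−0.33, adjusted p = 0.000591) had the lowest log2 fold changes. Ano8 (−0.29, adjusted p = 0.00262) and Use1 (−0.24, adjusted p = 0.00443) followed. Ocel1 (−0.27, adjusted p = 0.0926) and Gtpbp3 (−0.19, adjusted p = 0.362) missed the threshold. These 9 values spanned −0.39 to −0.19, and the median of −0.33 lay beside −0.31 for the other 678 tested genes of chromosome 8. Nr2f6 had −0.65 in the same fit (standard error 0.0754, adjusted p = 0.000145), and 1.92% of the other genes of the chromosome were lower than that.

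In bulk tumors, fewer cells that express a gene and less RNA per cell cannot be told apart. Sums of stromal genes moved with the guides there. The 10 leukocyte genes summed to between 295 and 378 TPM in control, 425 and 515 TPM for sg492 and 561 and 612 TPM for sg495. The 7 fibroblast genes summed to between 339.7 and 403 TPM, 459.6 and 549.6 TPM, and 550.4 and 956 TPM in the same order. The 8 endothelial genes moved less, with 65.7 to 75.2 TPM, 78.7 to 79.9 TPM and 80.6 to 83.2 TPM. With sg495 in bulk tumors, 7 of the 10 leukocyte genes were above both controls and 1 was below both. Of the 7 fibroblast genes, 6 were above both and 0 below both, and of the 8 endothelial genes, 3 were above both and 0 below both. The share of all genes above both controls is not given here. In sorted cells the leukocyte sum was between 4.15 and 5.54 TPM in control and 7.87 and 12.7 TPM with sg495, with Cd3e and Itgax among the genes at 0 in both groups. Of the 10 leukocyte genes there, 2 were above both controls with sg495 and 1 was below both. In cultures, where Ptprc, Cd3e, Cd8a, Itgam and Itgax were among the genes listed at 0 in control and sg495 libraries, the leukocyte sum was between 2.22 and 2.59 TPM in control and 4.68 and 6.49 TPM with sg495. There 3 of the 10 leukocyte genes were above both controls with sg495 and 0 were below both, and the median of the neighbors was −0.32. The sg492 bulk tumors had higher stromal sums than control and a median of the neighbors of 0.02. The part of RNA from other cell types in the neighbors' values was not tested in any sample type.

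With sg492 no neighbor passed a test. Limma called 0 of 10 neighbors in bulk tumors, 0 of 9 in sorted cells and 0 of 9 in cultures, where 0%, 0.0388% and 0.05% of all genes were called, and 0 neighbors had an unadjusted p below 0.05 in either direction in any sample type, where 1.63%, 3.38% and 3.67% of all genes were lower at that p. The log2 fold changes ran from −0.18 to 0.17 in bulk tumors, from −0.03 to 0.16 in sorted cells, and from −0.21 to 0.18 in cultures. Both sg492 libraries were below both controls for 4 of 10 neighbors in bulk tumors (11.3% of all genes), namely Use1, Babam1, Abhd8 and Mrpl34. In the sorted libraries labeled sg492 this held for 0 of 9 neighbors (20% of all genes). In cultures it held for 1 of 9 neighbors, Ocel1 (14.3% of all genes). Both sg492 libraries were above both controls for Dda1 and Ano8 in bulk tumors and for Ano8 in cultures. The same held for Use1, Babam1, Mrpl34 and Pgls in the sorted libraries. The share of all genes above both controls is not given here. The mean over sample types had a median of 0.04 over 9 neighbors.

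Compared directly, sg495 was lower than sg492 for most neighbors. The share of the rest of chromosome 8 is given here only for cultures. The counts for bulk tumors and sorted cells are therefore not read as particular to the neighbors. In bulk tumors 9 of 10 values were below 0 (48% of all genes), with 0 called by limma (0% of all genes) and 5 of 10 lower at an unadjusted p below 0.05 (5.54% of all genes). In sorted cells all 9 values were below 0 (58.1% of all genes), and Mrpl34 was called (1 of 9, 0.589% of all genes), with 58.68 and 56.17 TPM in the libraries labeled sg492 against 32.5 and 34.99 TPM with sg495 (log2 fold change −0.75, standard error 0.0986, adjusted p = 0.0445). The adjusted p ran from 0.000285 to 0.270 over 18 alternatives, and the call was lost in 15 of them, among them each fit that left out 1 of the 6 libraries (adjusted p from 0.0982 to 0.201). In cultures 0 of 9 were called (2.61% of all genes). There 5 of 9 were lower at an adjusted p below 0.05 (8.08% of all genes, 51.5% of the rest of chromosome 8), namely Babam1 (−0.44, adjusted p = 0.00522), Abhd8 (−0.49, adjusted p = 0.0106), Dda1 (−0.40, adjusted p = 0.0182), Ano8 (−0.49, adjusted p = 0.0223) and Pgls (−0.35, adjusted p = 0.0269).

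The lower values with sg495 extended along the whole of chromosome 8. Within 0.25 Mb on the upper side, which held 7 of the tested neighbors, the median log2 fold change with sg495 in cultures was −0.31 over 14 genes, against −0.43 between 0.25 and 1 Mb, −0.37 between 1 and 5 Mb, −0.33 between 5 and 20 Mb and −0.31 beyond 20 Mb. On the lower side it was −0.26 over 4 genes within 0.25 Mb and −0.33 over 173 genes beyond 20 Mb. Sorted cells had −0.35 within 0.25 Mb and −0.34 beyond 20 Mb on the upper side, and bulk tumors −0.14 and −0.26. Windows of 10 Mb along the whole chromosome, 13 in all, had medians between −0.42 and −0.23 in cultures, −0.46 and −0.19 in sorted cells, and −0.30 and −0.10 in bulk tumors. With sg492 the 13 windows lay between −0.08 and 0.10 over the 3 sample types. The 18 other autosomes had medians between −0.09 and 0.09 with sg495.

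**Figure D3:**
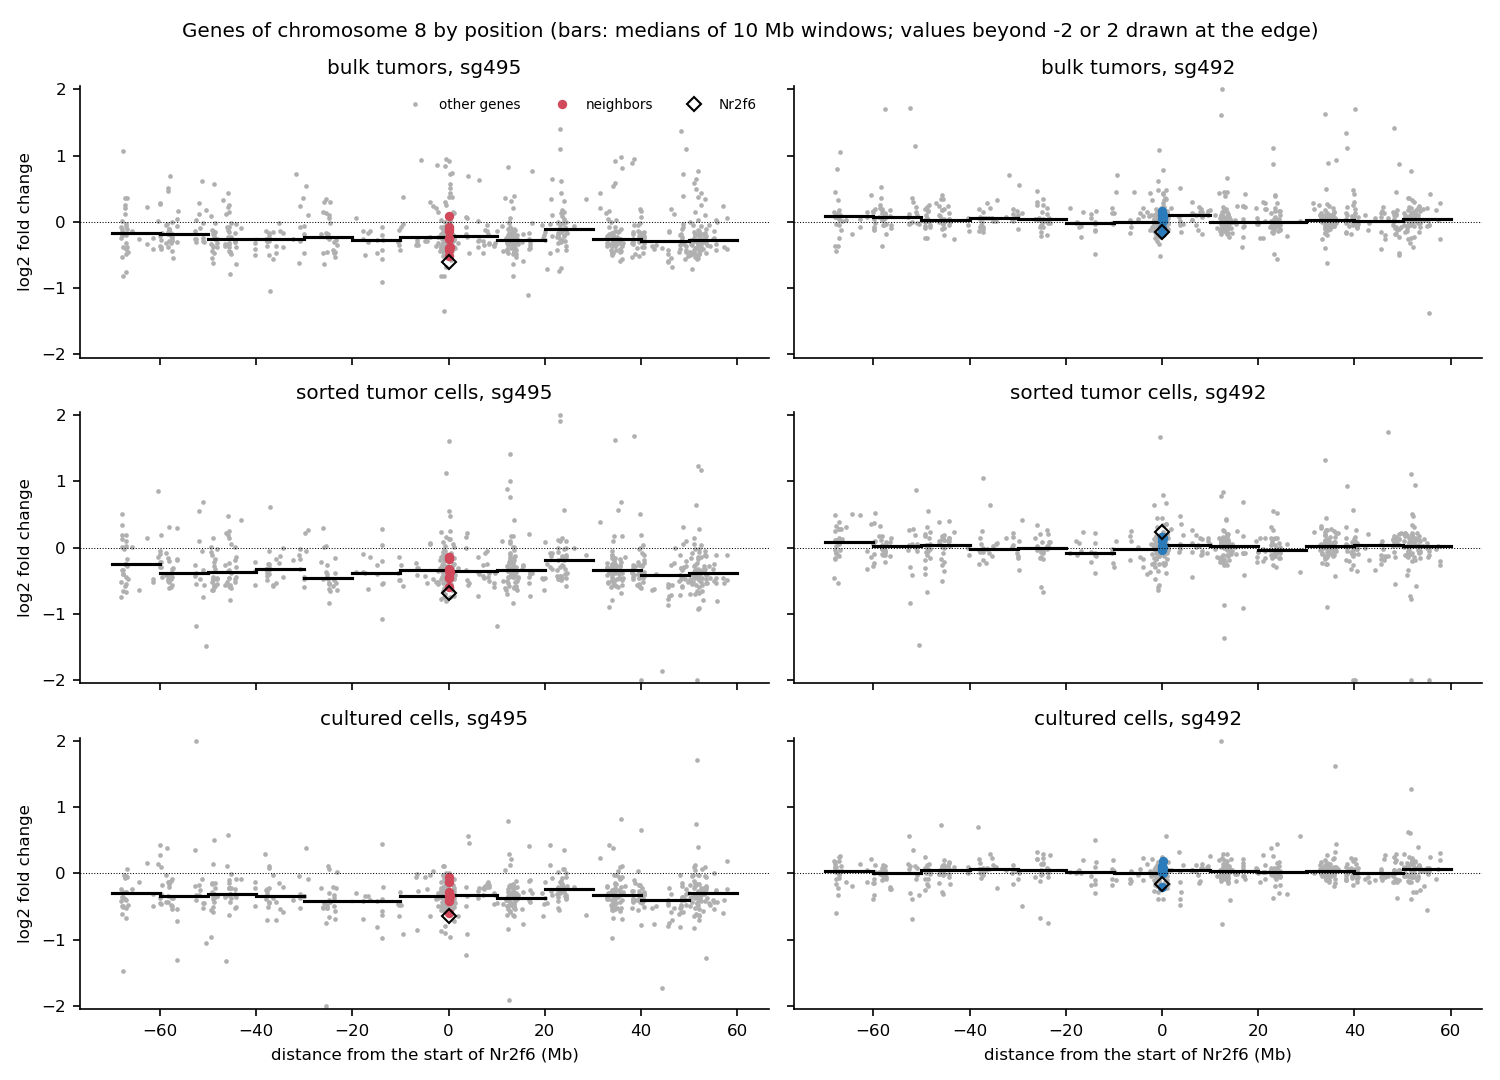
Log2 fold change of each tested gene of chromosome 8 against its distance from the start of Nr2f6 in Mb, for sg495 (left) and sg492 (right) in 3 sample types; gray points are other genes, colored points the neighbors, diamonds Nr2f6, and black bars medians of 10 Mb windows. The black bars stay below 0 from end to end with sg495, and within 0.10 of 0 with sg492.

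To set each neighbor against its own chromosome, every library was centered on the median of the other genes of chromosome 8. After centering, the neighbors lay on both sides of 0 with sg495: 5 of 10 were below 0 in bulk tumors, 5 of 9 in sorted cells and 4 of 9 in cultures. None had a limma adjusted p below 0.05, and the lowest was 0.187 in bulk tumors, 0.355 in sorted cells and 0.102 in cultures. Mrpl34 was the lowest neighbor in bulk tumors (−0.26) and sorted cells (−0.27) and the highest in cultures (0.29), where Ocel1 was the lowest (−0.25). Before centering, Nr2f6 had log2 fold changes of −0.60 in bulk tumors (limma adjusted p = 0.0865), −0.69 in sorted cells (adjusted p = 0.126) and −0.64 in cultures (adjusted p = 0.0213). After centering it had −0.35 (adjusted p = 0.179), −0.37 (adjusted p = 0.365) and −0.30 (adjusted p = 0.158), so the call in cultures was lost.

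Nr2f6 was lower relative to its neighbors in each sg495 library than in control. The log2 ratio of Nr2f6 to the mean of the 9 neighbors tested in all sample types was −0.45 and −0.48 in control bulk tumors and −0.74 and −0.88 with sg495. It was −0.77 and −0.88 against −1.27 and −1.17 in sorted cells, and −0.27 and −0.24 against −0.69 and −0.47 in cultures. All 6 sg495 libraries were below the controls of their sample type. The sg492 ratios were −0.59 and −0.66 in bulk tumors and −0.62 and −0.30 in cultures, all below control, and −0.80 and −0.56 in the sorted libraries labeled sg492, which were not. The mean level of the 9 neighbors was lower than its control mean by 0.29 to 0.40 on the log2 scale in the 6 sg495 libraries.

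**Figure D4:**
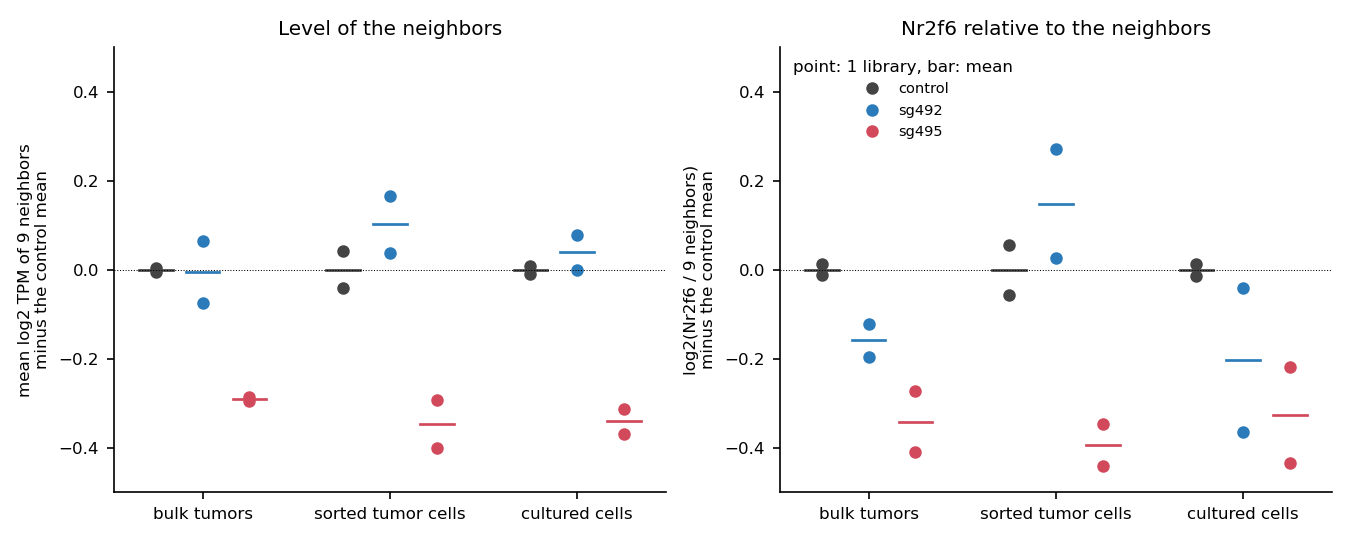
Left, mean log2 TPM of 9 neighbors per library minus the control mean of its sample type; right, the log2 ratio of Nr2f6 to those neighbors, also minus the control mean (points, libraries; bars, means of 2). The 6 sg495 points lie between −0.40 and −0.29 on the left and between −0.44 and −0.22 on the right.

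Another 14 genes of the table have bodies within 250 kb of Nr2f6, of which 10 were tested in bulk tumors and 9 each in sorted cells and cultures. With sg495, 6 of 10, 5 of 9 and 8 of 9 were below 0, and their median log2 fold changes were −0.05, −0.29 and −0.30. In cultures 5 of 9 were lower at an adjusted p below 0.05, about the share of chromosome 8 outside the 10 neighbors (50.6%, and 7.5% of all genes). These were Mvb12a (−0.53, limma adjusted p = 0.00505), Bst2 (−0.48, adjusted p = 0.0385), Colgalt1 (−0.31, adjusted p = 0.0328), Myo9b (−0.30, adjusted p = 0.0458) and Haus8 (−0.23, adjusted p = 0.0396). Bst2, which encodes the interferon-induced tetherin, went up in sorted cells: it had 47.01 and 42.15 TPM in control sorted cells and 126.04 and 151.9 TPM with sg495 (log2 fold change 1.61, standard error 0.146, adjusted p = 0.0134), and its value in bulk tumors was 0.92 (adjusted p = 0.105). The other genes tested in all 3 sample types, Ankle1, Slc27a1 and Fam129c, had adjusted p-values of at least 0.235 in each.

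The patterns of the neighbors across libraries were shared with genes along the chromosome. Over 18 libraries, with log2(TPM + 1) centered within each sample type, the correlation of each neighbor with the mean of the 9 ran from 0.72 for Ocel1 and 0.73 for Gtpbp3 to 0.97 for Babam1 and Pgls, each gene being part of that mean. Among 36 pairs of neighbors, r ran from 0.37 to 0.95 with a median of 0.72. The 5 genes outside the set with the most similar pattern were Fkbp8 (r = 0.97), Prkaca (0.97), Gipc1 (0.97), Chmp1a (0.97) and Hsbp1 (0.97), all on chromosome 8, between 0.854 Mb on the lower side and 51.8 Mb on the upper side of Nr2f6. Of the 100 most similar genes, 91 lie on chromosome 8, which holds 5.37% of the 11711 genes compared. The libraries share the guide groups and the TPM scaling, so these r are given without a test.

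Partners of the neighbors in their complexes and pathways, which are encoded mostly on other chromosomes, were tested with sg495 in the same fits. By limma, 0 genes of the 7 partner lists were called in any sample type. The 8 partners of Babam1 in the BRCA1-A and BRISC complexes had medians of 0.13, −0.02 and 0.01 in bulk tumors, sorted cells and cultures, beside 0.06, −0.04 and −0.0010 for all genes, with 0 at an adjusted p below 0.05 in any of the 3. The 47 other genes of the large mitochondrial ribosomal subunit had a median of 0.10 in cultures, where 6 rose and 1 fell at an adjusted p below 0.05 (4.51% of all genes rose and 7.5% fell), and −0.00062 and −0.03 in bulk tumors and sorted cells with 0 in either direction. Of the 6 other pentose phosphate genes, 1 rose and 1 fell in cultures at that threshold. The 7 partners of Use1 at the endoplasmic reticulum had 1 that fell in cultures, and the 8 other genes of mitochondrial tRNA modification had 1 that rose. None of the other anoctamins, 3 or 4 of which were tested, passed in any single sample type. Of 7 CUL4 ligase genes 1 fell in cultures, and it was Cul4a, the partner that lies on chromosome 8 (log2 fold change −0.43, limma adjusted p = 0.00447). Cul4a had −0.51 (adjusted p = 0.0532) in sorted cells and −0.19 (adjusted p = 0.247) in bulk tumors, and was named after its values were seen. Averaged over the 3 sample types, 1 gene fell at an adjusted p below 0.05 in each of 5 lists, beside 6.69% of all genes, and 0 rose in any of the 7. These were Shmt2 of 8 partners of Babam1 (−0.18, limma adjusted p = 0.0176), Tkt of 6 pentose phosphate genes (−0.17, adjusted p = 0.0201), Scfd2 of 7 partners of Use1 (−0.32, adjusted p = 0.0159), Ano10 of 4 anoctamins (−0.17, adjusted p = 0.0278) and Cul4a of 7 CUL4 ligase genes (−0.37, adjusted p = 8.03e-06).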

How the data were processed

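Poly(A) RNA had been sequenced from directional libraries. The submitters' processing notes name Cutadapt 2.3, STAR 2.7.0d and RSEM 1.3.1 with mm10, and the authors deposited the values as TPM. The study's own DESeq2 test on estimated counts was not repeated, since TPM are not counts. From the deposited TPM, log2(TPM + 1) was fitted with limma 3.58.1 (R 4.3.3, trend) in each sample type, for genes that averaged 1 TPM or more, with Benjamini-Hochberg adjustment over all genes tested. The mean over sample types and the differences between them came from 1 fit of 18 libraries. Calls required a fold change of 1.5 or more with an adjusted p under 0.05. TPM do not carry the depth of a library, so no depth was used. Positions came from GENCODE M21. Tables and plots were made with Python 3.11.15, pandas 2.3.3 and matplotlib 3.10.9.

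Groups came from the labels. Genes were named by a rule: Nr2f6, the 10 neighbors, other genes within 250 kb tested in all sample types, the 5 genes with the most similar pattern, and at most 3 called partners per list. Any gene named otherwise was chosen after its values were seen. Members and lists were chosen with earlier results of these data known. A second gene ID of Itgam was left out of the leukocyte list. The value of another gene of that list is not reported here. The fits were run on simulated data with fold changes planted in single genes, and only the mean estimate was checked. That simulation held no shift of a whole chromosome. Alternatives were another pseudocount (0.1), no filter or one at 5 TPM, 3 other scalings, the replicate number as a block, 2 groups only, 1 fit of 18 libraries, no trend, no fold threshold, centering on chromosome 8 and leaving out each library.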

Additional observations from a re-analysis of the deposited data

Results flagged for a closer look

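The sg495 effect on Mrpl34 was lower in sorted cells than in cultures by a log2 difference of −0.5462 (limma, adjusted p = 0.0248). This difference did not reach the fold threshold for a call in the fit of 18 libraries. It ran from −0.64 to −0.45 over 18 alternatives, and its adjusted p depended on single libraries, as described for Mrpl34 above. Both sorted sg495 libraries were below both controls, and the cultured libraries overlapped.

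With sg492, 3 neighbors had both libraries on opposite sides of both controls in 2 sample types, and these differences were not tested. The share of all genes with such a pattern was not counted. In bulk tumors alone, 11.3% of all genes had both sg492 libraries below both controls. Use1 had a log2 fold change of 0.1006 in the sorted libraries labeled sg492 and −0.138 in bulk tumors. Babam1 had 0.1581 and −0.0948 in the same order, and Mrpl34 had 0.154 and −0.1397. None of these 6 values had an unadjusted p below 0.05 by limma.

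In 5 libraries outside the comparisons, 2 from IgG control and 3 from anti-PD1 treatment, Babam1 was at 46.72 TPM or more in every anti-PD1 library and at 46.62 and 41.62 TPM in the IgG libraries. The gap between the nearest libraries was smaller than the spread within either group. The share of all genes that separate in these libraries was not counted, so Babam1 is not read as a result.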

How the results depend on the processing

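Centering each library on chromosome 8 moved most values by construction, since it subtracts the median of the other genes of that chromosome. With it, the median log2 fold change of the neighbors with sg495 was −0.0033 in bulk tumors, −0.025 in sorted cells and 0.015 in cultures, and against sg492 it was 0.035, −0.077 and −0.0050. Single values changed sign with sg495: in bulk tumors Ocel1 (0.18), Gtpbp3 (0.11), Ano8 (0.15) and Dda1 (0.0043), in sorted cells Use1 (0.16), Ocel1 (0.17), Gtpbp3 (0.18) and Abhd8 (0.0062), in cultures Use1 (0.21), Gtpbp3 (0.058), Ano8 (0.028), Mrpl34 (0.29) and Dda1 (0.015), and against sg492 Pgls in cultures (0.025). Scaling from genes not on chromosome 8 gave a bulk median of −0.33 with sg495. Quantile normalization turned the bulk median with sg492 to −0.065 and Ushbp1 with sg495 in bulk tumors to −0.088. Median-of-ratios scaling turned the median difference of bulk tumors minus sorted cells to −0.030. The cause of the changes under these other scalings was not tested.

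The number of neighbors called with sg495 in sorted cells became 1 with a filter at 5 TPM or 1 fit of 18 libraries. In cultures a filter at 5 TPM made it 0, since the called gene, Ocel1, averaged 4.99 TPM and was no longer tested. It also became 0 with no filter, quantile normalization, 1 fit of 18 libraries or chromosome 8 centering, and 5 with no fold threshold. Without that threshold it was also 5 for sg495 against sg492 in cultures, 7 for the mean over sample types and 1 for sorted cells minus cultures. For sg495 against sg492 in sorted cells it became 0 with the pseudocount of 0.1, no filter, median-of-ratios, quantile or not-chromosome-8 scaling, 2 groups only, no trend, chromosome 8 centering or the replicate block. Within a sample type, same-numbered libraries of different groups did not deviate together (r from −0.126 to 0.0507), so the numbers were not taken as pairs. Whether bulk and sorted libraries of a group came from the same tumors was not checked, and the fit of 18 libraries took them as independent. The replicate block changed no other number of neighbors called.

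Leaving out 1 library at a time, the medians ran from −0.10 to 0.085 with sg492 in bulk tumors, 0.030 to 0.15 in sorted cells and −0.013 to 0.090 in cultures, and from −0.42 to −0.27 with sg495 in cultures. Against sg492 they ran from −0.35 to −0.23, −0.51 to −0.38 and −0.46 to −0.33 in the same order of sample types. The median differences of the sg495 effect ran from −0.087 to 0.059 for sorted minus cultured, −0.018 to 0.15 for bulk minus cultured and −0.047 to 0.14 for bulk minus sorted. The numbers called ran from 0 to 1 for sg495 in cultures and for sorted minus cultured, and were 0 for sg495 against sg492 in sorted cells. Ushbp1 in bulk tumors with sg495 ran from −0.045 to 0.21, Ocel1 in sorted cells from −0.36 to 0.064 and Gtpbp3 from −0.38 to 0.10. With 2 libraries a group and TPM alone, counting error cannot be set apart from spread.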

Other observations

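The 5 libraries of IgG control and anti-PD1 treatment entered no comparison here. Ocel1 had 18.31 and 14.69 TPM in the IgG control libraries and 7.36, 9.69 and 6.71 TPM in the anti-PD1 libraries, so the groups did not overlap, and it was named after its values were seen. Apart from Ocel1 and Babam1, the neighbors overlapped between these groups. How many of all genes separate in these libraries was not counted, so neither gene is read as a result.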
